A study of Mus musculus with 2 samples.

Results

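The forkhead (Fox) family was examined in whole kidneys of mouse embryos at embryonic day 14.5. Its members were taken as the protein-coding genes whose GENCODE symbol is Fox, a subfamily letter from a to s, a number and at most 1 further letter. This gave 44 genes, all of them present in the tables, of 21474 protein-coding genes measured. Total RNA was sequenced from 2 libraries of a single group, which the labels number as biological replicates 1 and 2. Each library came from 2 kidneys of 1 embryo of strain B6NCrl, with no treatment or genotype contrast named, and was started from 10 ng of RNA longer than 200 nt. The labels conflict in part: they name pooled male and female material beside kidneys of a single pup, give both samples the same donor entry and place the collections on different days, so the make-up of the samples cannot be settled further. The design therefore gives levels and their agreement between 2 libraries, and no test between conditions.

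Forkhead proteins bind DNA through a winged-helix domain whose recognition helix lies in the major groove. Subfamilies are named by letter after the sequence of that domain. In the developing kidney, Foxd1 marks the cortical stroma and its progenitors, Foxc1 and Foxc2 act in early kidney mesoderm and in podocytes, Foxi1 is needed for intercalated cells of the collecting duct, and Foxm1 drives genes of mitosis in dividing cells. Foxo proteins are held outside the nucleus by insulin and growth factor signalling through Akt, and Foxp and Foxk proteins act largely as repressors.

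The family's relatedness is shown first through the stretch that carries most of the recognition helix, since it is the part by which members contact DNA. A 48-base coding segment was located in the GENCODE M21 transcripts on GRCm38 by a search for the recognition helix motif in their translation, and it was found in 37 of the 44 members. Foxb1, Foxb2, Foxe1, Foxe3, Foxh1, Foxr1 and Foxr2 did not match the motif as it was written, which says nothing more about their domains. The segments below are given 5′ to 3′ on the coding strand for some of the members at 1 TPM or more, and capitals mark the bases that differ from Foxc2.
Foxc2 (chr8:121116963-121117010, plus strand): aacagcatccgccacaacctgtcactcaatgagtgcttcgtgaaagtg
Foxl1 (chr8:121128244-121128291, plus strand): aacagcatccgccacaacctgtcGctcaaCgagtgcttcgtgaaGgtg
Foxc1 (chr13:31807577-31807624, plus strand): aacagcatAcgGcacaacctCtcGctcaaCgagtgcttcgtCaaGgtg
Foxi1 (chr11:34207490-34207537, minus strand): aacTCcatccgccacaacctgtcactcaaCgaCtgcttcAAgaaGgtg
Foxd1 (chr13:98355145-98355192, plus strand): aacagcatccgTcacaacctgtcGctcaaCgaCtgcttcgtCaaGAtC
Foxn3 (chr12:99388379-99388426, minus strand): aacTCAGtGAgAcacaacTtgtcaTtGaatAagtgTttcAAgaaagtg
Foxj3 (chr4:119585750-119585797, plus strand): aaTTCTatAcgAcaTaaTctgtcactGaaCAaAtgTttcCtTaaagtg
Foxo3 (chr10:42197854-42197901, minus strand): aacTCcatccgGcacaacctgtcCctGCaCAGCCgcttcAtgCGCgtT
Foxm1 (chr6:128370957-128371004, plus strand): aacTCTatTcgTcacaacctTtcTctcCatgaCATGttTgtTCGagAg
Foxl1 differed from Foxc2 at 3 of 48 bases, the closest pair found between subfamilies at 93.75% identity, and its gene lies next to Foxc2. Foxc1, the other Foxc gene, differed at 7 bases. Foxi1 also differed at 7 bases and Foxd1 at 8, whereas Foxn3 differed at 14, Foxj3 at 15, Foxo3 at 16 and Foxm1 at 17. Among members whose segments are not shown, Foxs1 differed at 6, Foxp4 at 18, Foxp1 at 21 and Foxp2 at 24. The median identity was 83.3% over 37 pairs within a subfamily and 68.75% over 629 pairs between subfamilies. Only Foxd3 and Foxd4 had identical segments.

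The libraries held 28429080 and 27758872 expected counts on genes in replicates 1 and 2. Spike-in RNAs took 4.34% and 4.95% of all counts, and mitochondrial genes 2.04% and 2.89% of gene counts. The tissue label was checked against markers: all 7 kidney markers were found at 1 TPM or more in both libraries (TPM is a transcript level corrected for length and scaled to a fixed total per library), with Cited1 at 131.49 and 141.27 TPM and Wt1 at 128.74 and 81.51 TPM. All 4 podocyte markers and all 4 cortical stroma markers were found as well. Markers of thyroid, gonad and neural crest or sympathetic cells were below 1 TPM in at least 1 library for all 4 genes of each list. Ccl25 and Emx1 were the only members of the thymus and forebrain lists above that floor. Of the 4 gut and liver genes 2 were above it, Alb at 1.34 and 1.05 TPM and Apoa1 at 2.04 and 2.32 TPM.

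Forkhead transcripts made up a small share of the RNA, closer between the libraries by counts than by TPM. The 44 members together held 20617.2 expected counts in replicate 1 and 20207.47 in replicate 2, which is 0.0725% and 0.0728% of gene counts. Their summed level was 342.54 and 300.44 TPM (321 ± 29.8 TPM, SD, n = 2). That is 0.0432% and 0.0395% of the TPM of all protein-coding genes. Of the members, 22 reached 1 TPM in both libraries, called detected below, which is 50% of the family against 59% of all protein-coding genes. The same 59% is the background for the numbers of listed genes detected below. Foxj1 passed this floor in replicate 2 only, and 21 members stayed below it in both. The median member had 1.17 TPM with the zeros kept, against 4.20 TPM for all protein-coding genes, and the median detected member had 7.25 TPM. The plot of levels by library shows a step between Foxf1, at 0.73 and 0.56 TPM, and the members below it, none of which was above 0.18 TPM in either library.

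**Figure D1:**
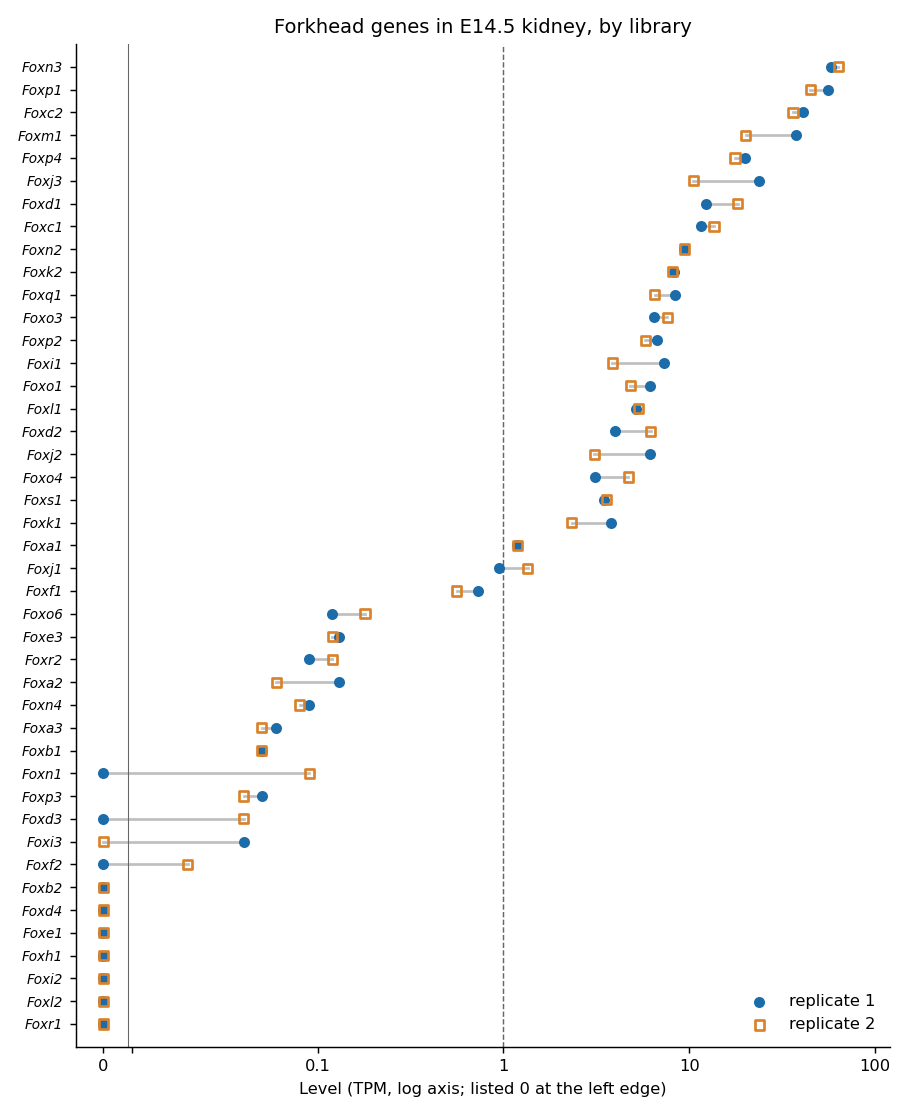
Level of the forkhead genes described in the text in replicate 1 (filled circles) and replicate 2 (open squares), in TPM on a log axis, with listed zeros at the left edge and the 1 TPM floor as a dashed line. Foxn3, Foxp1, Foxc2 and Foxm1 lie at 20 TPM or more in both libraries, and the genes at the bottom lie at 0 in both.

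Only 4 members exceeded 20 TPM in both libraries and 14 exceeded 5 TPM. The 5 highest, Foxn3, Foxp1, Foxc2, Foxm1 and Foxp4, carried 61.5% of the summed level. Many neighbours in the order could not be ranked: of the 21 neighbouring pairs among detected members, 15 had ranges over the 2 libraries that overlapped. By these ranges Foxn3, Foxp1 and Foxc2 did not overlap one another, while Foxc2 and Foxm1 did. The deposited TPM intervals of Foxn3 and Foxp1 overlapped in replicate 1, at 52.4 to 63.6 and 51.3 to 61.1. In replicate 2 they did not, at 58.4 to 68.1 and 42.8 to 50.4. All levels describe whole kidneys, in which fewer cells of a type and less RNA per cell cannot be told apart.

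By subfamily, Foxp genes held 23.5% ± 1.01 of the summed level, Foxn genes 22.1% ± 3.29 and Foxc genes 16.0% ± 0.838 (SD, n = 2). These sums depend on how many genes a letter has, 4 for Foxp, 4 for Foxn and 2 for Foxc. In TPM, Foxp summed to 82.84 and 68.35, Foxn to 67.64 and 73.31, and Foxc to 52.73 and 49.81. Foxp and Foxn thus exchanged the first place between the libraries. Foxm followed at 28.8 ± 12.2 TPM, Foxj at 22.9 ± 11.3, Foxd at 20.4 ± 5.79, Foxo at 16.6 ± 1.07 and Foxk at 11.3 ± 1.12 TPM (SD, n = 2). Within most of them a single gene carried the sum: Foxn3 gave 86.4% of Foxn, Foxc2 75.5% of Foxc, Foxd1 75.0% of Foxd, Foxj3 74.8% of Foxj and Foxk2 72.8% of Foxk. Foxo was the exception among these, with Foxo3 at 42.4% of its sum. Of 19 subfamilies, 13 had a detected member, 5 were detected in full, and 6 had none, Foxf, Foxe, Foxr and Foxb among them.

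**Figure D2:**
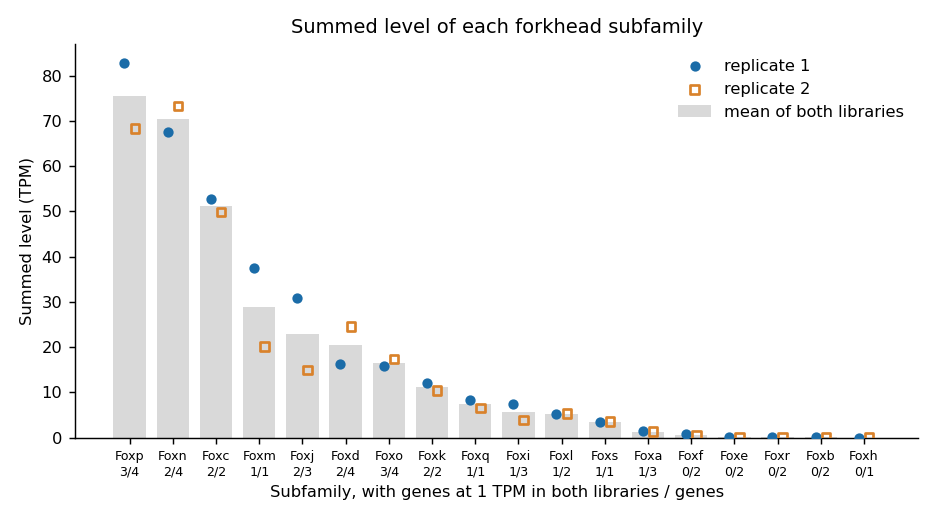
Summed level in TPM of the forkhead subfamilies, with bars from 0 for the mean of both libraries and points for replicate 1 (filled circles) and replicate 2 (open squares); the fraction under each name gives its detected genes over its genes. Foxp, Foxn and Foxc stand above the rest, and Foxm, at 37.46 and 20.16 TPM, has the widest gap between libraries.

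Among the repressor-type members, Foxn3 had the highest level of the family. This gene, at chr12:99190078-99563582 on the minus strand, encodes a checkpoint-linked transcriptional repressor. It had 58.13 and 63.66 TPM from 1822 and 2350 expected counts. Foxn2, the other detected Foxn gene, was lower at 9.42 and 9.48 TPM, from 824 and 1034 expected counts. The TPM ratio of Foxn3 to Foxn2 was 6.44 ± 0.385 (SD, n = 2). That ratio rests in part on a Foxn3 transcript of 566 nt, described below. By the longest coding transcript alone, Foxn3 had a mean of 14.5 TPM and Foxn2 of 8.455 TPM. Foxn4, which acts in retinal and spinal progenitors, and Foxn1, the thymic epithelial regulator mutated in nude mice, stayed at or below 0.09 TPM. Foxp1, at chr6:98925338-99522721 on the minus strand, had 56.12 and 44.84 TPM from 2936.81 and 2804.17 expected counts, the most counts of any member. Foxp4 followed with 19.96 and 17.67 TPM, and Foxp2, known for its part in vocal and motor circuits of the brain, with 6.71 and 5.80 TPM. The 3 genes kept their order in both libraries, with Foxp1 at 2.67 ± 0.194 times Foxp4 and 8.05 ± 0.447 times Foxp2 (SD, n = 2). Foxp3, the factor of regulatory T cells, had 3.53 and 3.47 expected counts, or 0.05 and 0.04 TPM.

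Foxk1 and Foxk2 bind DNA and recruit repressor complexes such as Sin3. Foxk2 had 8.25 and 8.13 TPM, and Foxk1 3.80 and 2.33 TPM. Foxk2 was the higher in both libraries, and its 2 values lay closer together than those of Foxk1. The 11 genes listed as cofactors or binding partners of Foxp and Foxk proteins were all detected, with a median of 32.1 TPM against 4.20 TPM for protein-coding genes. Hdac2, a histone deacetylase of the NuRD and Sin3 complexes, had 227.25 and 195.16 TPM, the corepressor Ctbp1 249.93 and 155.36 TPM, and Hdac1 208.74 and 183.87 TPM. Dvl1, a Wnt signalling protein that Foxk proteins carry into the nucleus, was the lowest at 4.96 and 5.36 TPM.

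Foxc2 was the third highest member and the highest made from a single annotated transcript. This single-exon gene, at chr8:121116171-121118895 on the plus strand, had 41.18 and 36.19 TPM from 2110 and 2140 expected counts. Foxc1, its partner in kidney mesoderm, at chr13:31806633-31812476 on the plus strand, had 11.55 and 13.62 TPM from 869 and 1182 counts. Foxc2 exceeded Foxc1 in both libraries, with ratios of 3.57 and 2.66. The members sit in 2 clusters with other forkhead genes. On chromosome 8, Foxf1, Foxc2 and Foxl1 follow one another on the same strand with gaps of 28026 and 9044 bases. There Foxl1, a gene of mesenchyme, had 5.17 and 5.35 TPM and Foxf1, a Hedgehog-responsive factor of gut and lung mesenchyme, only 0.73 and 0.56 TPM. Foxc2 was 60.5 ± 5.81 times Foxf1 and 7.36 ± 0.849 times Foxl1 (SD, n = 2). On chromosome 13, Foxq1 is followed after 64839 bases by Foxf2 and after another 175229 bases by Foxc1. Foxq1 had 8.40 and 6.53 TPM, whereas Foxf2 had 0 counts in replicate 1 and 1 count in replicate 2. In both clusters the Foxf gene was the lowest and the Foxc gene the highest, as the map of the clusters shows.

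**Figure D3:**
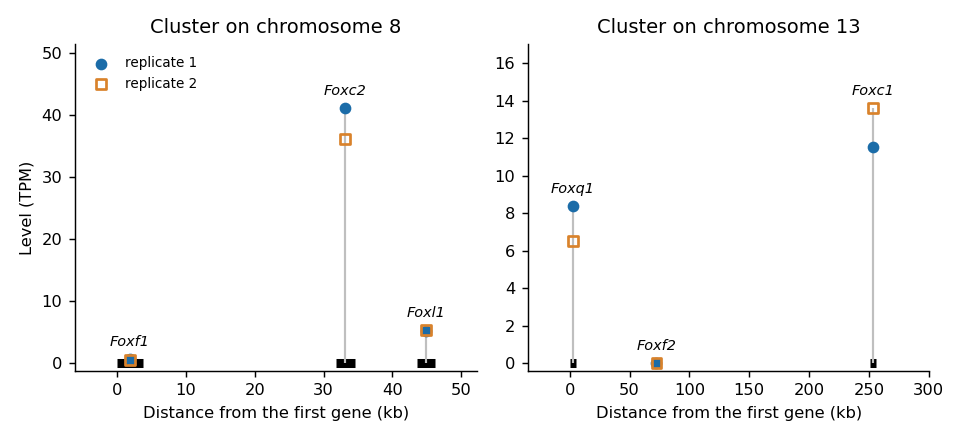
Position of the forkhead genes of 2 clusters as distance in kb from the start of the first gene (black blocks on the baseline), with the level in TPM of each gene in replicate 1 (filled circles) and replicate 2 (open squares) above it; the vertical scales differ. The Foxf gene lies near 0 in both clusters, next to Foxc2 at 41.18 and 36.19 TPM and upstream of Foxc1 at 11.55 and 13.62 TPM.

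Genes tied to these members gave a mixed picture. The 8 genes listed for podocytes and Foxc were all detected, with a median of 18.2 TPM, Tcf21 highest at 258.78 and 288.66 TPM and Lmx1b lowest at 1.71 and 1.40 TPM. Of 11 Hedgehog and ureteral mesenchyme genes, 9 were detected, against 59% of all protein-coding genes. The median of all 11 was 6.77 TPM, with the Hedgehog transducer Smo highest at 53.67 and 38.53 TPM. Fendrr, a noncoding RNA that starts 1276 bases from Foxf1 in the opposite direction, had 0.09 and 0.06 TPM, the lowest of that list.

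Foxm1 was the fourth highest member and varied more between libraries than those above it. The gene, at chr6:128362967-128376146 on the plus strand, had 37.46 TPM in replicate 1 and 20.16 TPM in replicate 2, from 2488.68 and 1601.76 expected counts (28.8 ± 12.2 TPM, SD, n = 2). Replicate 1 was higher by a log2 ratio of 0.86. All 12 mitotic genes listed as Foxm1 targets were detected, with a median of 69.0 TPM. The survivin gene Birc5 had 275.44 and 315.05 TPM, the centromere histone gene Cenpa 246.95 and 294.68 TPM, and the cyclin gene Ccnb1 248.33 and 217.14 TPM. Nek2, a centrosome kinase, was lowest at 35.78 and 19.72 TPM. Of the 12, 10 were higher in replicate 1, against 76.3% of all detected protein-coding genes, and none passed the rule for genes apart between libraries given below, which 3.9% of those genes passed. Rhno1, a DNA damage response gene whose start lies 56 bases from that of Foxm1 on the other strand, had 103.33 and 100.87 TPM and so did not share the gap of Foxm1.

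Foxd1 and Foxd2 were both higher in replicate 2. Foxd1, at chr13:98354242-98359305 on the plus strand, had 12.38 and 18.28 TPM from 571 and 973 expected counts. Foxd2, at chr4:114906282-114908873 on the minus strand, had 3.97 and 6.22 TPM from 193 and 349 counts. Their log2 ratios were -0.53 and -0.54, and Foxd1 was 3.12 times Foxd2 in replicate 1 and 2.94 times in replicate 2. Both are single-exon genes with segments that share 89.6% of their bases. The other Foxd genes were not detected: Foxd3, a neural crest factor, had 0 and 2 counts, and Foxd4 had none. All 11 stromal genes listed with Foxd1 were detected, with a median of 63.9 TPM, led by Tcf21 and by the retinoic acid enzyme gene Aldh1a2, which had 314.59 and 229.18 TPM. Tbx18 was lowest at 2.45 and 2.64 TPM. Of the 11, 6 were higher in replicate 1, against 76.3% of all detected protein-coding genes, and their median log2 ratio was 0.09, against 0.285. Among them Meis1, with 86.60 and 41.28 TPM, and Pdgfra, with 41.44 and 16.22 TPM, differed by more than 2-fold in the opposite direction to Foxd1.

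The upstream region of Foxd2 is of interest because a second transcript starts there. Foxd2os, an RNA without a coding annotation on the other strand, starts 384 bases from Foxd2 and had 24.49 and 29.44 TPM, above Foxd2 and likewise higher in replicate 2. The RefSeq promoter window of Foxd2 on GRCm38.p6, from 250 bases before to 50 bases after its start, lies at chr4:114908849-114909148 on the minus strand. It does not reach the start of Foxd2os, at chr4:114909257. The window holds 26 CpG dinucleotides, shown in capitals.
Foxd2 promoter: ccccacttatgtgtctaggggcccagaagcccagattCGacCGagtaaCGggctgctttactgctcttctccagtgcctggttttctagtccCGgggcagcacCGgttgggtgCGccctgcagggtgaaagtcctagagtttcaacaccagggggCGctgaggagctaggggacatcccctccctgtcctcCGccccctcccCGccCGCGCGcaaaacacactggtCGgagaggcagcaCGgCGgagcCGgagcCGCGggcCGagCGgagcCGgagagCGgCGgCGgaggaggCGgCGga
Its GC content was 67.7%. Over the 33 windows found in RefSeq for 28 members, the median GC content was 62.7%, against 52.7% for all 32851 windows. The 15 windows of detected members had a median of 31 CpG dinucleotides and the 18 of members not detected had 12.5, against 7 for all windows. These windows covered 13 of the 22 detected members and 15 of the 22 not detected. Genes with several windows, such as Foxp1 and Foxa2, counted more than once, and Foxc2 and Foxm1 had no window. The forkhead core GTAAACA, sought on both strands, occurred in 1 member window of 33, or 3.03%, and in 3.65% of all windows.

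Foxi1 and Foxj1 mark specialised epithelial cells. Foxi1, the intercalated cell factor, at chr11:34204338-34208089 on the minus strand, had 7.29 and 3.85 TPM from 321 and 196 counts. Foxj1, the master factor of motile cilia, at chr11:116330704-116335399 on the minus strand, had 0.95 and 1.35 TPM from 47 and 77 counts. Foxi1 was higher in replicate 1 and Foxj1 in replicate 2, and the ratio of Foxi1 to Foxj1 was 7.67 in replicate 1 and 2.85 in replicate 2. Of 8 genes of intercalated cells, 5 were detected, close to the 59% of all protein-coding genes. The median over all 8 was 1.95 TPM, below that of all protein-coding genes. Carbonic anhydrase 2 (Car2) had 30.01 and 23.20 TPM and Tfcp2l1, a transcription factor of the collecting duct, 25.48 and 15.21 TPM. Slc4a1, the anion exchanger of acid-secreting cells and red cells, had 2.36 and 2.49 TPM, and the pendrin gene Slc26a4 was lowest at 0.15 and 0.03 TPM. Of 18 matched genes of motile cilia (Dnai1 and Dnai2 found no match), 8 were detected, against 59% of all protein-coding genes. The median over all 18 was 0.793 TPM. Tppp3 was highest at 14.51 and 16.80 TPM, followed by Rfx3, a ciliary transcription factor, at 12.65 and 10.03 TPM, and by Tekt1 at 4.54 and 6.19 TPM. The dynein genes Dnah5, Dnah9 and Dnah11 stayed at or below 0.23 TPM, and Cdhr3 had 0 counts in both libraries.

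Of the 4 Foxo genes, 3 were detected. Foxo3, at chr10:42181841-42276755 on the minus strand, had 6.44 and 7.64 TPM. Foxo1, at chr3:52268336-52353221 on the plus strand, had 6.17 and 4.83 TPM, and Foxo4 on the X chromosome 3.10 and 4.70 TPM. Foxo3 exceeded Foxo1 in both libraries, with ratios of 1.04 and 1.58. Foxo6, described mainly in brain, had 6 and 10 counts, or 0.12 and 0.18 TPM. All 14 genes listed upstream of Foxo were detected, with a median of 26.8 TPM. The 14-3-3 protein gene Ywhaz was highest at 775.27 and 502.51 TPM, and Akt2 had 75.91 and 47.47 TPM. Of 17 genes listed as Foxo targets, 13 were detected, against 59% of all protein-coding genes. The median over all 17 was 11.5 TPM. Catalase (Cat) had 86.77 and 58.62 TPM and the mitophagy gene Bnip3 61.69 and 63.57 TPM, while G6pc, an enzyme gene of glucose production, had 3 and 0 counts.

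Foxj3 was the only member set apart between the libraries by a rule of an absolute log2 ratio of at least 1, computed on TPM + 1, with at least 5 TPM in the higher library. This gene, at chr4:119537004-119629119 on the plus strand, is known in mouse for a part in muscle fibre identity and spermatogenesis. It had 23.76 TPM in replicate 1 and 10.54 TPM in replicate 2, from 1908 and 903 expected counts, a log2 ratio of 1.10. By counts per gene count the log2 ratio was 1.04, with an exact 95% binomial interval of 0.93 to 1.16 that covers counting error only. The same rule set apart 2.33% of all protein-coding genes and 3.9% of those detected. Genes set apart and higher in replicate 1 were 2.1% of all protein-coding genes, and 1 of 44 members is close to that background. On counts scaled with TMM factors the log2 ratio of Foxj3 was 0.95 and in FPKM, a level per length and depth, 0.86, so that no member was apart. Foxj2, another Foxj gene, was also higher in replicate 1, with 6.18 and 3.08 TPM and a log2 ratio of 0.82, and Foxj3 was 3.84 and 3.42 times Foxj2 in the 2 libraries. At a fold of 1.5, 4 of 44 members were apart, a share below the 13.3% of all protein-coding genes. These were Foxm1, Foxj3, Foxi1 and Foxj2, all higher in replicate 1. By the first rule, 451 of the 501 protein-coding genes set apart were likewise higher in replicate 1.

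Across the 22 detected members, 12 were higher in replicate 1, 9 in replicate 2 and Foxa1 was equal, while the sign for Foxk2, Foxp1, Foxc2, Foxp4 and Foxp2 turned under another scaling. Among all detected protein-coding genes 76.3% were higher in replicate 1. The median log2 ratio, replicate 1 over replicate 2, was 0.0929 for the members and 0.285 for protein-coding genes. Relative to the median of protein-coding genes, 8 members lay above and 14 below, with Foxj3 at 0.82, Foxm1 at 0.58, Foxd1 at -0.81 and Foxd2 at -0.82. The median absolute log2 ratio was 0.259 for the members and 0.337 for protein-coding genes. The levels of the detected members in the 2 libraries had a Pearson correlation of 0.938 on the log2 scale and a Spearman correlation of 0.921 across genes, given as a description because the genes share both libraries.

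The difference between the libraries moved with gene length. Among all 12669 detected protein-coding genes the Spearman correlation of mean length with the log2 ratio was 0.570, and across the 22 detected members it was 0.299. Protein-coding genes below 1500 nt had a median log2 ratio of -0.08, and those of 3500 to 5000 nt had 0.55. Single-exon members, which are 14 of the 44, were detected in 7 cases, against 59% of all protein-coding genes. Of these 7, 2 were higher in replicate 1. Of 30 multi-exon members 15 were detected, the same share as of single-exon members. Of these 15, 10 were higher in replicate 1, against 76.3% of all detected protein-coding genes. With TMM-scaled counts 1 of 7 and 6 of 15 were higher in replicate 1. On that scaling the median log2 ratio of detected protein-coding genes was 0.0175, so the 76.3% does not apply to it. Foxd1 and Foxd2 lay below the median of their length class, and Foxj3, Foxm1, Foxi1 and Foxj2 above it. The part of length in these differences was not tested.

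**Figure D4:**
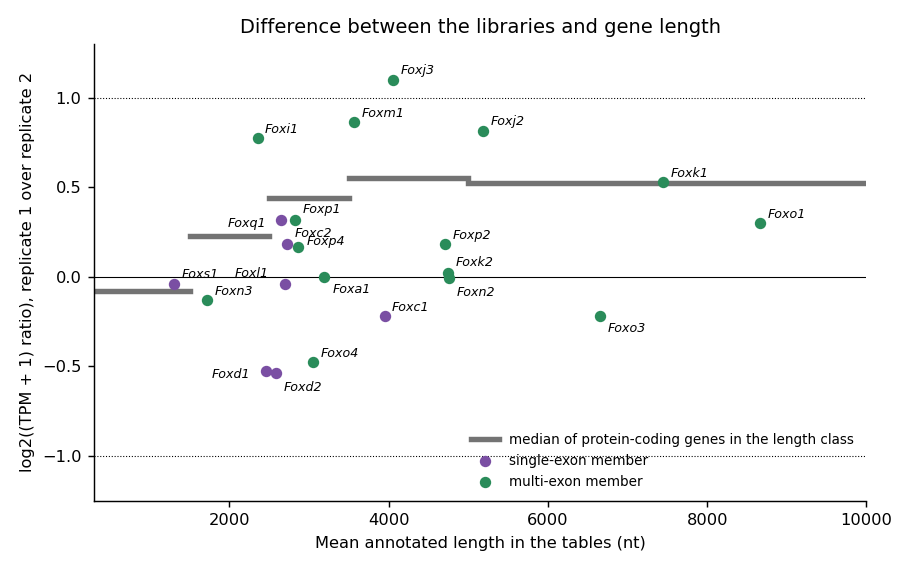
Log2((TPM + 1) ratio), replicate 1 over replicate 2, against mean annotated length in nt for the 22 detected forkhead genes, coloured by exon structure, with grey bars for the median of detected protein-coding genes in 5 length classes and dotted lines at a 2-fold difference. Only Foxj3 lies beyond the 2-fold lines, at 1.10.

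Transcript estimates set a limit on the order of the highest members. Of the members at 5 TPM or more in both libraries, 5 had a single annotated transcript and 9 had several. In 8 of these 9 the libraries had the same leading transcript. By the deposited posterior mean values, a second estimate of the same shares, it was 7 of 9. There Foxp4 was led by Foxp4-204 in replicate 1 and by Foxp4-202 in replicate 2. The lead of Foxn3 rested on Foxn3-205, a coding transcript of only 566 nt in the tables. It took 39.35% and 45.42% of the level of the gene from 208.45 and 304.12 counts, while Foxn3-201, of 2803 nt, had 896.73 and 1018.07 counts. Foxn3-201 is 7705 nt long in GENCODE M21, so the tables used a shorter form of it. Some single-exon members were shortened too. Foxd1 had 2462 nt against 5064 in GENCODE M21, and Foxc1 3953 against 5844. Foxq1 had 2653 nt against 4843, and Foxl2 1241 against 3256. Printed coordinates are those of GENCODE M21 and span more than the tables used for such members. For Foxp1, Foxp1-204 of 7177 nt led with 25.04% and 27.41%, and transcripts with a coding annotation made up 67.3% and 66.1% of its level. Foxm1-201 carried 76.17% and 79.25% of Foxm1, and Foxj3-202 carried 54.87% and 51.61% of Foxj3. In Foxp2 the leading transcript differed: Foxp2-201 took 41.78% in replicate 1 and 27.84% in replicate 2, and Foxp2-207 took 22.35% and 36.77%. Ordered by the coding transcript that is longest in the tables, Foxc2 came first, followed by Foxm1, Foxd1, Foxn3 and Foxp1. For Foxn3 this was Foxn3-209, of 2882 nt, at 12.86 and 16.14 TPM. Foxn3-201, which is longer in GENCODE M21, had 16.99 and 16.72 TPM, and Foxd1 had 12.38 and 18.28 TPM. The order of Foxn3 and Foxd1 is thus not settled. Ordered by expected counts, Foxp1 came first, followed by Foxc2, Foxn3 and Foxm1.

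**Figure D5:**
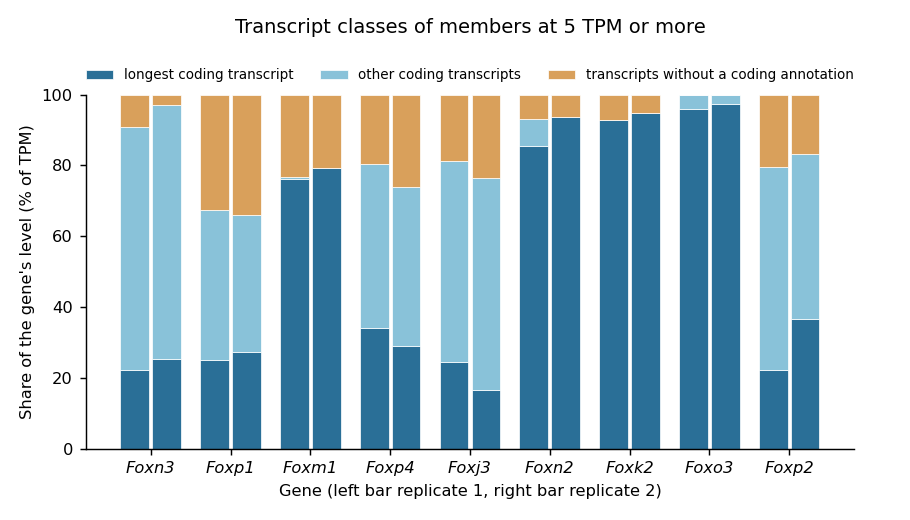
Share of the level of each gene, in percent of its TPM, held by its longest coding transcript, other coding transcripts and transcripts without a coding annotation, for the 9 members at 5 TPM or more with several transcripts; the left bar of each pair is replicate 1 and the right bar replicate 2. Foxo3, Foxk2 and Foxn2 rest mainly on their longest coding transcript, while Foxn3 and Foxj3 rest mainly on other coding transcripts in both libraries. Longest is by the lengths in the tables, which for Foxn3 is Foxn3-209.

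Some members share sequence or ground with other genes. The expected counts were whole to within 0.005 for 38 members and not whole for 6, among them Foxp1, Foxm1, Foxq1 and Foxj2 of the detected ones. Shared runs were sought in GENCODE M21 transcripts, some of which are longer than the forms counted. A run of 50 nt shared with another gene on the same strand was found in 17 members. Such runs were shared by 3 pairs of members, Foxc1 with Foxc2 and Foxd3 with Foxd4 among them. Foxc1 and Foxc2 shared only 4 runs. In its GENCODE M21 form of 4843 nt, Foxq1 overlaps A530084C06Rik on the other strand over 65.7% of its runs. The counted form of Foxq1 had 2653 nt, for which the overlap was not computed. A530084C06Rik had 7.14 and 5.34 counts. The counts of Foxq1 and A530084C06Rik summed to 426.0 and 381.0, and those of Foxj2 and its antisense gene Gm26826 to 627.0 and 373.0. These sums were whole within 0.015, as were those of Foxb1 with its antisense gene, at 3.0 and 6.0. The sums of Foxp3 with each of its overlapping antisense genes were not whole, for example 1134.18 and 962.84 with Ccdc22. Whether reads were divided between genes on opposite strands was not tested. Reads of these pairs cannot be told apart with certainty, and the sources used here do not say whether counting was stranded. Gm20388, annotated across Foxf1, Foxc2 and Foxl1 on the same strand, had 9.45 counts in replicate 1 and 483.85 in replicate 2. Its gap between libraries is not mirrored in Foxc2 or Foxl1, which had whole counts in both.

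The remaining detected members were low. Foxs1, a gene of pericytes and sensory neurons, had 3.47 and 3.59 TPM, and Foxa1, a pioneer factor of endoderm and urothelium, 1.19 and 1.19 TPM. Its relatives Foxa2 and Foxa3, which act in endoderm and liver, had at most 4 counts. Foxb1, a hypothalamic factor, had 3 and 3.55 counts, Foxe3, a lens factor, 2 and 2, Foxr2 5 and 8, and Foxi3, of the ectodermal placodes, 1 and 0. Foxn1, Foxd3, Foxi3 and Foxf2 were at 0 in 1 library and had from 1 to 6 counts in the other, levels at which the libraries cannot be ranked.

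For 8 members no count was assigned in either library, which is 18.2% of the family against 19.9% of all protein-coding genes. Among them were Foxb2, Foxd4, Foxe1 of the thyroid, Foxh1 of Nodal signalling, Foxi2, Foxl2 of the ovary and Foxr1. At this depth a count of 0 allows up to 3 counts, which corresponds to between 0.0492 and 0.135 TPM in these genes, for counting error only. Genes listed for thyroid and gonad, the latter not specific to the ovary, were low as well. Of 4 thyroid genes none was detected and Nkx2-1 had 0 TPM in both libraries, and of 4 gonad genes none was detected.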

How the data were processed

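Gene and transcript tables of 2 total RNA-seq libraries of E14.5 kidney were used. Per the notes deposited with the tables, reads were assigned to mm10 with GENCODE M4; aligner and quantifier names were not given in the sources used here. Expected counts, as deposited, are estimated reads per feature and need not be whole. The deposited TPM values are abundances scaled over all features. The deposited FPKM values are fragments per effective length and depth. The deposited bounds of the TPM credibility interval (signal on the TPM scale) describe 1 library at a level not given. The deposited isoform percent is a transcript's share of its gene's TPM.

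Of 43346 gene IDs, 42462 matched GENCODE M21 on GRCm38, whose names and coordinates (1-based) were used. The depth was 28429080 and 27758872 counts on genes. Detection meant 1 TPM in both libraries; ratios were log2((TPM + 1) ratio), replicate 1 over replicate 2, with exact conditional binomial 95% intervals. With 2 libraries of 1 group nothing was tested. TMM factors came from edgeR 4.0.16 (R 4.3.3) on rounded expected counts, with other steps in Python 3.11.15. The ratio step was tested on simulated data. Full values were given for members at 5 TPM or more or with known kidney roles, and from each list up to 3 of the highest genes and the lowest; other genes were named after their values were seen. Members and lists were chosen with earlier results of these data known. A few list genes and 1 member are not reported here by name.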

Additional observations from a re-analysis of the deposited data

How the results depend on the processing

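The number of detected members was 21 to 24 under the other floors and estimates and 14 at a floor of 5 TPM. The summed level was 413 TPM when rescaled to protein-coding genes, 228 in FPKM and 284 over protein-coding transcripts only, an alternative chosen after seeing the data. The median level was 7.25 TPM over detected members only, 1.51 TPM rescaled and 0.843 in FPKM. By expected counts, Foxp held 22.3% and Foxn 14.8% of the family. Members apart between the libraries numbered 0 with TMM-scaled counts and 0 with FPKM, where the log2 ratio of Foxj3 was 0.95 and 0.86, and 4 at a fold of 1.5. The median log2 ratio was 0.0358 rescaled, -0.205 with TMM and -0.0807 with FPKM; the median over protein-coding genes was 0.236 rescaled and 0.0175 with TMM. Of 132 ratios of single members, 10 changed sign, in Foxk2, Foxp1, Foxc2, Foxp4 and Foxp2. The cause was not tested.

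With either library alone, detected members numbered 22 to 23, the summed level was 300.4 to 342.5 TPM, the median 1.07 to 1.27 TPM, and the shares of Foxp, Foxn and Foxc 22.7% to 24.2%, 19.7% to 24.4% and 15.4% to 16.6%. No paired analysis was possible because the labels give only 1 group. With 2 libraries and lengths from another annotation release, differences between neighbouring members and levels below about 3 counts are not resolved.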
